A study of Mus musculus with 16 samples.

Results

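In mouse muscle cells, 1068 genomic regions carried a c-Jun peak in proliferating myoblasts and a MyoG peak in early myotubes, with neither a MyoD nor a RUNX1 peak. They were 1068 of 97753 regions in all, or 1.09%. The regions were selected by the presence and absence of peaks in 4 lists from chromatin immunoprecipitation followed by sequencing (ChIP-seq), 1 list per factor. Peaks on chromosomes 1 to 19 of the mouse build mm9 that overlapped by at least 1 bp were merged into a region, and a region was kept if it held c-Jun and MyoG peaks and no peak of the other lists. Peak presence thus fixed the members, and the shares and scores below are given as descriptions, without a test.

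The cells were primary cultures of wild-type C57BL/6 satellite cells taken from the gastrocnemius muscle at an age of 2 to 3 weeks. On day 3 of culture, in proliferation medium, chromatin was precipitated for RUNX1, MyoD and c-Jun. MyoG was precipitated on day 4, after 24 hours in a differentiation medium with 4% horse serum and 0.04 U/mL insulin. Each factor had 2 ChIP libraries, and each had 2 libraries of a control precipitation, with rabbit non-immune serum for RUNX1, mouse IgG for MyoD and MyoG, and rabbit IgG for c-Jun, so that 16 samples formed 8 groups. Each list holds 1 set of peaks, so the spread between cultures could not be computed, and the read depth is unknown. The number of animals behind a culture is not given in the sources used here, and no gene expression that could check the cell type was part of these files.

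c-Jun is a leucine zipper protein that joins with Fos or other Jun proteins in the AP-1 complex, which binds short palindromic elements and acts in growth and stress responses. MyoD and MyoG (myogenin) are basic helix-loop-helix proteins that bind E-box elements. MyoD acts in the commitment of myoblasts and MyoG in their terminal differentiation into myotubes. RUNX1 is a runt domain protein that is expressed in myoblasts and in injured muscle. c-Jun is known for its opposition to MyoD in proliferating myoblasts. A region with c-Jun on day 3 and MyoG on day 4 pairs measurements from different cultures and stages, so it does not show both proteins on 1 DNA molecule, and factor and stage cannot be told apart. MyoD was not measured in myotubes, nor c-Jun and RUNX1, so the absence of MyoD and RUNX1 refers to myoblasts. Genes, motifs and DNA sequence at the regions are not described here, because the reference tables used a later build than the peaks.

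The class was among the rarest combinations. The 15 combinations of 4 factors ranged from 16259 regions with MyoG alone to 481 with RUNX1 and MyoD alone, and the c-Jun and MyoG class was the third smallest, above RUNX1 with MyoD and c-Jun (931). Regions with c-Jun and MyoG were more numerous whenever another factor was present. There were 2586 with RUNX1 added, 4638 with MyoD added and 10532 with both.

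**Figure D1:**
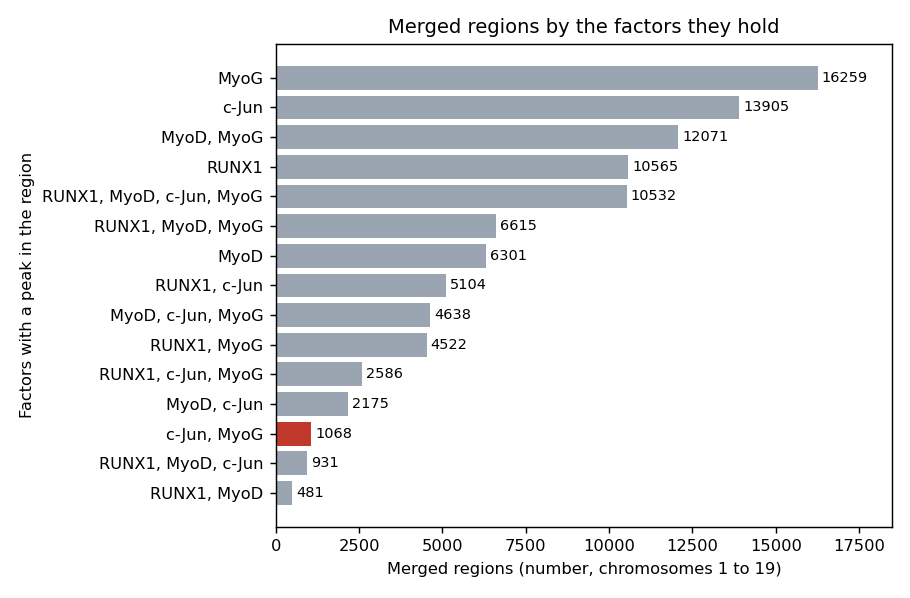
Number of merged regions (horizontal axis) for each of the 15 combinations of factors (vertical axis), chromosomes 1 to 19. The red bar is the class with c-Jun and MyoG alone, at 1068 regions, between 931 regions with RUNX1, MyoD and c-Jun and 2175 with MyoD and c-Jun.

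From the side of c-Jun, 14973 regions of myoblasts held c-Jun without MyoD and RUNX1, and MyoG was present in 7.13% of them (95% exact binomial interval 6.73 to 7.56%, which covers the counting of regions only). Across the 19 chromosomes this share was 7.16% ± 1.27 (mean ± SD, n = 19 chromosomes). From the side of MyoG, 17327 regions of myotubes held MyoG where myoblasts had neither MyoD nor RUNX1, and c-Jun was present in 6.16% of them (interval 5.81 to 6.53%), with 6.24% ± 0.962 over chromosomes. The c-Jun share of MyoG regions was 27.8% where MyoD was present, 36.4% where RUNX1 was present and 61.4% where both were. The order therefore differed between the sides. MyoG was more frequent at c-Jun regions with MyoD (68.1%) than with RUNX1 (33.6%), while c-Jun was more frequent at MyoG regions with RUNX1 than with MyoD. On every chromosome the share at regions without MyoD and RUNX1 was below 9%, with a maximum of 8.95% of c-Jun regions on chromosome 8 and of 8.08% of MyoG regions on chromosome 10.

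The strength of the c-Jun peak hardly separated the c-Jun regions with MyoG from those without it. Peak strength is given by the score that the authors' software wrote for each peak. Its lowest value was 50.01, it sat at exactly 3100 for many strong peaks and above that for a few, up to 3233, and it was used only to rank peaks within 1 list. When the c-Jun list was divided into 5 equal parts by score, MyoG was present at 6.92% of the c-Jun regions without MyoD and RUNX1 in the weakest part, and at 7.18%, 6.34%, 7.85% and 8.23% in the following parts. The intervals of the weakest part (6.19 to 7.71%) and of the strongest (6.83 to 9.80%) overlapped. Where MyoD was present without RUNX1, the MyoG share was 65.7% in the weakest 20% of c-Jun peaks and 71.5% in the strongest. Where RUNX1 was present without MyoD, it was 35.9% and 33.9%.

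From the side of MyoG, c-Jun was present at 6.34%, 6.74%, 5.65%, 4.91% and 4.93% of the regions without MyoD and RUNX1, from the weakest to the strongest 20% of the MyoG list. The strongest 20% held only 203 such regions, 10 of them with c-Jun. Its interval ran from 2.39 to 8.87% and holds the shares of all other parts. The part next to the strongest, with 1650 regions, had an interval of 3.92 to 6.06%. That lay just below the interval of the part next to the weakest, 6.07 to 7.45%, and overlapped those of the remaining parts. MyoG regions with RUNX1 and without MyoD held c-Jun less often towards strong MyoG peaks, at 40.4% in the weakest 20% and 24.7% in the strongest. With MyoD and without RUNX1, the share was 25.9% in the weakest 20% and 31.6% in the strongest.

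Both peaks of these regions were mostly weak. The c-Jun score had a median of 119.9, with quartiles of 72.9 and 264.9, and the MyoG score a median of 91.7, with quartiles of 65.6 and 144.5. The middle c-Jun peak stood at the 37.5 percentile of the c-Jun list, and the middle MyoG peak at the 25.7 percentile of the MyoG list. These values were close to those of regions with 1 factor alone. The median c-Jun score was 116.7 in c-Jun-only regions, and the members' median lay above it on 14 of 19 chromosomes and below it on 5. The median MyoG score was 95.7 in MyoG-only regions, and the members' median lay above it on 7 of 19 chromosomes and below it on 12. The SD of the members' median over the 19 chromosomes was 12.8 for c-Jun and 8.91 for MyoG. It describes the spread of single chromosomes and does not measure the error of the gap between medians over all regions.

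Classes with another myoblast factor had stronger peaks. The median c-Jun score was 174.6 with MyoD added, 190.2 with RUNX1 added and 323.7 with both. For MyoG the rise was larger with MyoD than with RUNX1. Its median score was 256.3 with MyoD added, 112.5 with RUNX1 added and 702.8 with both. A c-Jun score of 1000 or more occurred in 34 of the 1068 members (3.18%), and 3 of them reached 3100. A MyoG score of 1000 or more occurred in 1 member (0.0936%). It was also rare in MyoG-only regions, at 33 of 16259 (0.203%), and with RUNX1 added, at 12 of 2586 (0.464%), but not with MyoD added, at 493 of 4638 (10.6%).

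The c-Jun and MyoG scores of a region hardly moved together. Spearman's rho between the c-Jun and the MyoG score was -0.07 over the 1068 regions, a description across regions that share their libraries. It was also near 0 in the other classes with both factors, at 0.04 with MyoD added, -0.04 with RUNX1 added and 0.05 with all 4 factors. In 560 regions (52.4%) both peaks lay in the weaker 50% of their lists, and in 51 (4.78%) both lay in the stronger 50%. A c-Jun peak of the stronger 50% met a MyoG peak of the weaker 50% in 334 regions (31.3%), and the reverse held in 123 (11.5%). These counts were made for the members only. The low median percentiles of both peaks already place most of them in the weaker 50%, so the counts show no joint trait beyond that.

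**Figure D2:**
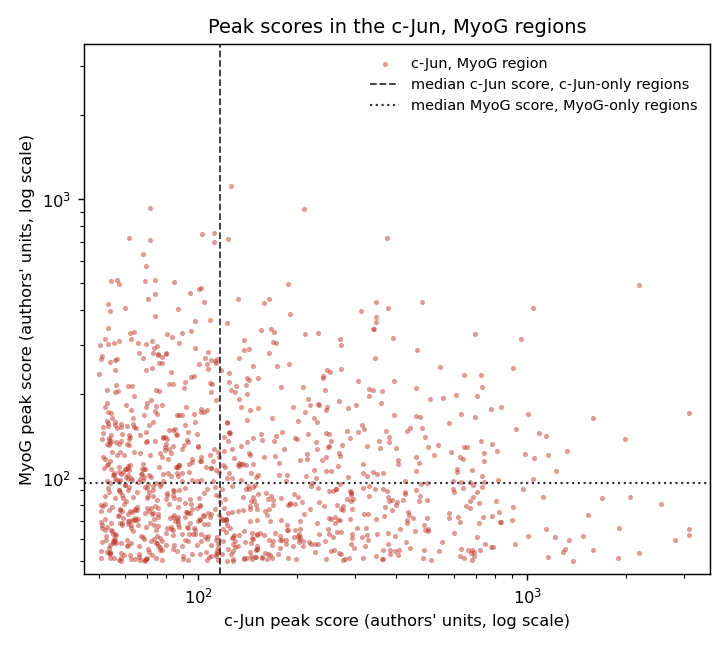
c-Jun score (horizontal axis) against MyoG score (vertical axis) of the 1068 regions, both in the authors' units on log scales, 1 point per region. The dashed and dotted lines are the medians of c-Jun-only regions (116.7) and of MyoG-only regions (95.7), and few points lie far out on both axes.

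Many members lay close to the lowest deposited score. The c-Jun peak scored under 100 in 444 regions (41.6%), the MyoG peak in 590 (55.2%), and at least 1 of the pair in 806 (75.5%). Regions with 1 factor alone were similar in this. A c-Jun score of at least 100 was reached by 58.4% of the members and 57.1% of c-Jun-only regions, and a MyoG score of at least 100 by 44.8% of the members and 47.5% of MyoG-only regions. Just inside the rule, 169 regions (15.8%) held a peak that scored under 55. Just outside it, 60 regions had c-Jun, MyoG and a MyoD peak whose score was under 55, and 47 had a RUNX1 peak of that kind. If only peaks with scores of at least 100 were used in all 4 lists, 744 regions qualified, of which 262 were members under the rule. Of the other 482, 477 held MyoD or RUNX1 peaks that scored under 100, and in 5 a peak of at least 100 had been joined to the region by a weaker one. With that threshold on c-Jun and MyoG peaks only, the class held 262 regions, and MyoG was present at 3.06% of the c-Jun regions without MyoD and RUNX1, in place of 7.13%. Whether a missing peak marks absence of the factor or a signal under the authors' threshold cannot be told apart without the depth.

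The typical member was a single pair of overlapping peaks. Of the 1068 regions, 1043 held 1 c-Jun and 1 MyoG peak, and 25 held 1 c-Jun peak with 2 MyoG peaks. The regions had a median width of 1137 bp, from 605 to 3049 bp. The c-Jun peak was the wider, with a median of 1077 bp against 577 bp for MyoG. The MyoG peak lay wholly inside the c-Jun peak in 679 regions (63.6%), and in 22 regions (2.06%) the overlap was 50 bp or less. The nested share was 73.3% with MyoD added, 60.9% with RUNX1 added and 63.0% with both. Pairs with an overlap of 50 bp or less, or with none, made up 1.96%, 8.86% and 4.78% of these classes in the same order. Both shares of the members lay within the range of these classes. Pairs without overlap, joined only through a MyoD or RUNX1 peak, cannot occur in the members, so the shares of small overlaps are not alike.

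The centres of the peaks lay a median of 126.5 bp apart, with quartiles of 52.9 and 341.0 bp. Where a region held 2 MyoG peaks, the higher-scoring one was used. The distance was at most 50 bp in 255 regions (23.9%), at most 150 bp in 579 (54.2%) and over 500 bp in 158 (14.8%). Over all 18824 regions that hold c-Jun and MyoG peaks, whatever else they hold, 56.8% had centres within 150 bp, so the members' share was near this background. The median was 87.5 bp with MyoD added, 162.5 bp with RUNX1 added and 128.5 bp in regions with all 4 factors. On 15 of 19 chromosomes the members' median was larger than that of regions with MyoD added, on 16 of 19 it was smaller than that of regions with RUNX1 added, and against regions with all 4 factors it was larger on 9 and smaller on 10. The median of a chromosome was 123.5 bp ± 32.7 (SD, n = 19 chromosomes) in the members and 88.4 bp ± 8.40 with MyoD added. These are orders over chromosomes of the same libraries and not a test between cultures. The classes also differ in what the merging allows. In the members the c-Jun and MyoG peaks must overlap, while a MyoD or RUNX1 peak can join peaks that do not touch. The largest distance was 1189 bp in the members, 1931 bp with MyoD added, 2831.5 bp with RUNX1 added and 6044 bp with both. The part of this in the orders was not tested.

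**Figure D3:**
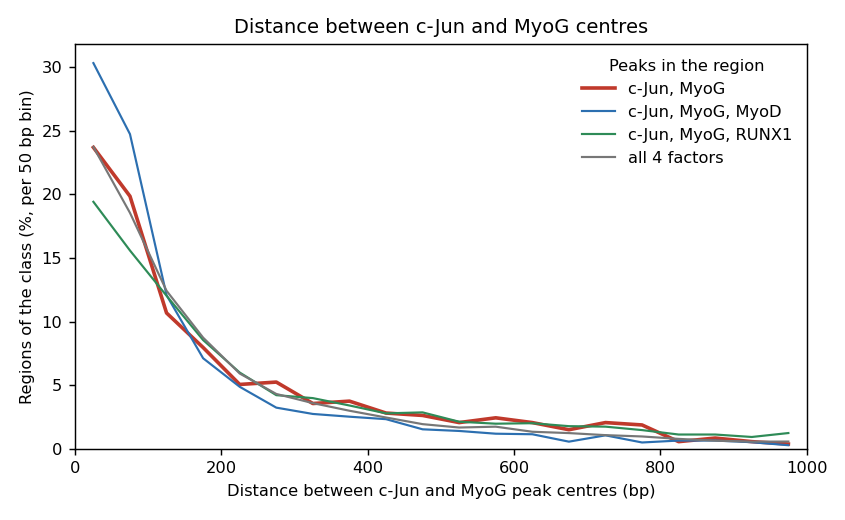
Share of the regions of a class (vertical axis, percent per bin of 50 bp) by the distance between c-Jun and MyoG peak centres (horizontal axis, bp), for the 4 classes that hold both. The members (red) start at 23.7% in the innermost bin, beside the regions with all 4 factors and below the regions with MyoD added.

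The median c-Jun score was highest among members with distant centres, and the median MyoG score was not. Spearman's rho between centre distance and score was small over the members, at 0.096 for c-Jun and 0.044 for MyoG. The c-Jun median was 114.9 for centres within 50 bp, 106.8 for 50 to 150 bp, 122.1 for 150 to 500 bp and 153.4 beyond 500 bp. The MyoG median was 89.0, 96.5, 88.2 and 93.3 in the same order. The widths moved with the c-Jun score, since c-Jun peaks beyond 500 bp had a median width of 1125 bp, against 1072 bp within 50 bp. Wider peaks overlap across longer distances, and the part of width in this difference was not tested.

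Where the c-Jun peak had neither MyoD nor RUNX1, MyoG peaks of the same kind were concentrated at its centre. The number of MyoG centres per 1000 c-Jun peaks and per 100 bp of distance, both sides counted, was 31.2 within 100 bp, 13.4 from 100 to 200 bp and 7.41 from 200 to 300 bp. It was 3.61 from 500 to 600 bp, and the mean between 2 and 5 kb was 2.56. The innermost value was 12.2 times the flank, and the value at 500 to 600 bp was 1.41 times the flank. The innermost value lay above the flank on 19 of 19 chromosomes, with ratios between 7.16 on chromosome 9 and 17.4 on chromosome 12. Centres of members lay up to 1189 bp apart, so the values up to that distance are part of the overlap that chose the members. The height there describes the class and is no support for it. The flank was limited by the class too, since MyoG peaks of regions with MyoD or RUNX1 were left out of it. A MyoG peak in the c-Jun peak's own region always counted. The ratios, also those by chromosome, are thus raised by the filter and give no enrichment over all MyoG peaks. For c-Jun and MyoG peaks that both lay in regions with MyoD and without RUNX1, the innermost value was 377.8 over a flank of 3.43. With RUNX1 and without MyoD it was 121.5 over a flank of 1.80. Overlap chose these classes too, so their innermost values largely restate the MyoG shares of c-Jun regions given above. Their flanks were filtered by class in the same way.

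**Figure D4:**
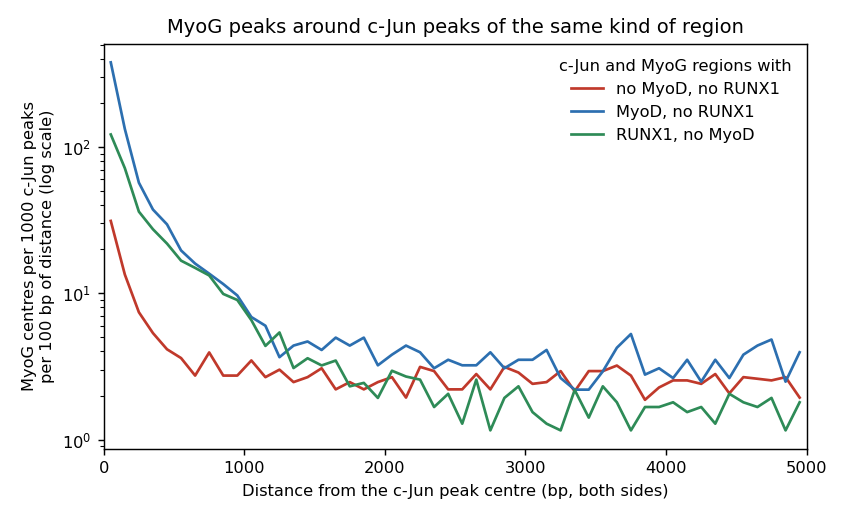
MyoG peak centres per 1000 c-Jun peaks per 100 bp (vertical axis, log scale) by the distance from the c-Jun peak centre (horizontal axis, bp, both sides), for c-Jun and MyoG peaks of regions without MyoD and RUNX1, with MyoD alone and with RUNX1 alone. The red line falls from 31.2 to 3.61 by 500 to 600 bp and then stays near its flank of 2.56.

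MyoD and RUNX1 peaks were near most members although none overlapped them. The nearest MyoD peak centre lay a median of 9017 bp from the centre of the region, and the nearest RUNX1 peak centre a median of 9612 bp. At least 1 of these lay within 10 kb of 703 regions (65.8%). Over all 31232 regions without MyoD and RUNX1, this held for 62.4%, so such nearness was not particular to the members. The share was 57.1% for c-Jun-only regions and 66.8% for MyoG-only regions. The members' share lay above that of c-Jun-only regions on 18 of 19 chromosomes, and above that of MyoG-only regions on 12 of 19. Over chromosomes it was 65.7% ± 5.41 in the members, 57.3% ± 3.90 in c-Jun-only regions and 66.4% ± 3.76 in MyoG-only regions (SD, n = 19 chromosomes).

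Peak counts within 50 kb to either side were also lowest around c-Jun-only regions. A member had on average 4.33 MyoD and 4.14 RUNX1 peaks within this distance, a MyoG-only region 4.30 and 4.22, and a c-Jun-only region 3.34 and 3.03. Other MyoG peaks numbered 6.35 around members, 6.58 around MyoG-only regions and 4.41 around c-Jun-only regions. In these counts the members lay nearer to MyoG-only than to c-Jun-only regions. Other c-Jun peaks numbered 3.82 around members, above 3.55 around MyoG-only and 3.20 around c-Jun-only regions.

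The next region along the chromosome lay a median of 2607 bp from the edge of a member. It held MyoD in 45.7% of cases, RUNX1 in 40.4% and all 4 factors in 11.2%. Over all merged regions the shares with MyoD, RUNX1 and all 4 factors were 44.7%, 42.3% and 10.8%, so the next region had about the composition of the whole set. It was another c-Jun and MyoG region in 15 of 1068 cases (1.40%), against 1.09% of all regions.

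Edge to edge, 22 members (2.06%) had a MyoD or RUNX1 peak within 100 bp, 114 (10.7%) within 500 bp and 186 (17.4%) within 1 kb. Distances between edges were computed for the members only, so these shares have no comparison. At the other end, 18 members (1.69%) had no MyoD or RUNX1 peak centre within 100 kb. The same held for 2.78% of c-Jun-only and 1.80% of MyoG-only regions, so the members were not more isolated than these. The nearest 3 were chr17:45734710-45735366, with a RUNX1 peak 9 bp away and a MyoD peak 208 bp away, chr9:67452419-67453577, with a MyoD peak 17 bp away, and chr11:83880053-83881252, with a RUNX1 peak 19 bp away. Such regions would leave the class if peaks were drawn slightly wider. The 3 most isolated were chr9:38526146-38527528, at 626.7 kb from the nearest MyoD or RUNX1 peak, chr12:59068867-59069904, at 299.2 kb, and chr12:52025440-52026329, at 270.8 kb. Their c-Jun scores were 95.95, 90.95 and 71.77 and their MyoG scores 116.7, 154.8 and 189.6, so these isolated pairs were not strong.

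The members in which both factors ranked high were taken by the worse of the c-Jun and MyoG ranks. In the 10 best, c-Jun scores ran from 186.8 to 2179 and MyoG scores from 387.7 to 918.7. The best was chr7:29141741-29143684, with a c-Jun score of 373.8 (rank 11721) and a MyoG score of 723.9 (rank 11391). Its centres lay 895.5 bp apart, and a RUNX1 peak followed at 994 bp. The next, chr4:95303281-95305290, had a strong c-Jun peak of 2179 (rank 921) and a MyoG peak of 490.4 (rank 16309), with centres 955.5 bp apart. These leading regions thus joined neighbouring peaks by their edges.

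Further down, chr19:46702205-46703605 had a c-Jun score of 479.6 and a MyoG score of 427.7 with centres 234.5 bp apart. The peaks of chr18:67719145-67720242 had the same centre, 0 bp apart, with scores of 345.9 for c-Jun and 427.0 for MyoG. The region chr12:105279251-105280456 had the highest MyoG score of the 10, 918.7, beside a c-Jun score of 209.1, with the nearest MyoD or RUNX1 peak 21917 bp away. The region chr9:72044420-72046086 had scores of 1043 for c-Jun and 406.9 for MyoG, with centres 534.5 bp apart.

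The other 4 were chr7:56528625-56529774, with a MyoD peak 140 bp away, chr18:62088445-62089940, chr12:36579345-36580451 and chr1:191783671-191785086. Their c-Jun scores were 376.9, 312.1, 190.2 and 186.8 and their MyoG scores 404.5, 396.8, 387.7 and 496.0. Of these, chr12:36579345-36580451 was the most isolated of the 10, at 143.8 kb from the nearest MyoD or RUNX1 peak, with centres 109.5 bp apart. Of the 10 regions, 3 had centres within 150 bp and 3 had centres over 500 bp apart.

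The highest single scores belonged to pairs of unequal strength. The 3 highest c-Jun scores were 3100, at chr1:40903896-40905475, chr8:84389154-84391876 and chr13:32976157-32977553. MyoG scored 65.3, 62.2 and 169.9 there, each below the 190.3 that is the median of the MyoG list on chromosomes 1 to 19. The centres lay 2.5, 694.0 and 53.5 bp apart, so the MyoG peaks on chromosomes 1 and 13 were near the middle of a strong c-Jun peak. The 3 highest MyoG scores outside the 10 regions above were 1117 at chr12:73932490-73933559, 927.3 at chr11:101860304-101861468 and 753.0 at chr2:27084548-27085647. Their c-Jun scores were 125.7, 71.5 and 111.9, with centres 38.5, 233.0 and 27.0 bp apart.

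The members fell into 1012 windows of 100 kb, of which 958 (94.7%) held 1 member, 52 held 2 and 2 held 3. Windows were not counted for other classes, so these numbers do not show whether the members were scattered or grouped. The windows with 3 were chr17:34700001-34800000 and chr18:36600001-36700000. The window on chromosome 17 held 12 merged regions in all, 3 with MyoD and 7 with RUNX1. Its members had c-Jun scores of 67.0, 73.7 and 184.8 and MyoG scores of 61.4, 378.4 and 59.7. The window on chromosome 18 held 10 merged regions, 1 of them with MyoD, and its members had c-Jun scores of 381.1, 94.95 and 376.4 and MyoG scores of 134.5, 80.5 and 63.4. The next by position among the 52 windows with 2 members was chr1:195100001-195200000, where 11 of 19 regions held MyoD.

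The number of members per chromosome ran from 29 on chromosome 19 to 99 on chromosome 2. It followed the number of merged regions, since members were between 0.864% of them on chromosome 14 and 1.40% on chromosome 10. The MyoG share of c-Jun regions without MyoD and RUNX1 was lowest on chromosome 14, at 5.41% with 32 members. Chromosome 14 also had the closest centres, with a median of 57.3 bp and 75.0% within 150 bp, and the lowest median c-Jun score, 94.2. The widest median distance was 178.5 bp on chromosome 17, where 46.0% of centres lay within 150 bp. A MyoD or RUNX1 peak centre lay within 10 kb of 58.8% of the members on chromosome 15 and of 74.3% on chromosome 11.

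**Figure D5:**
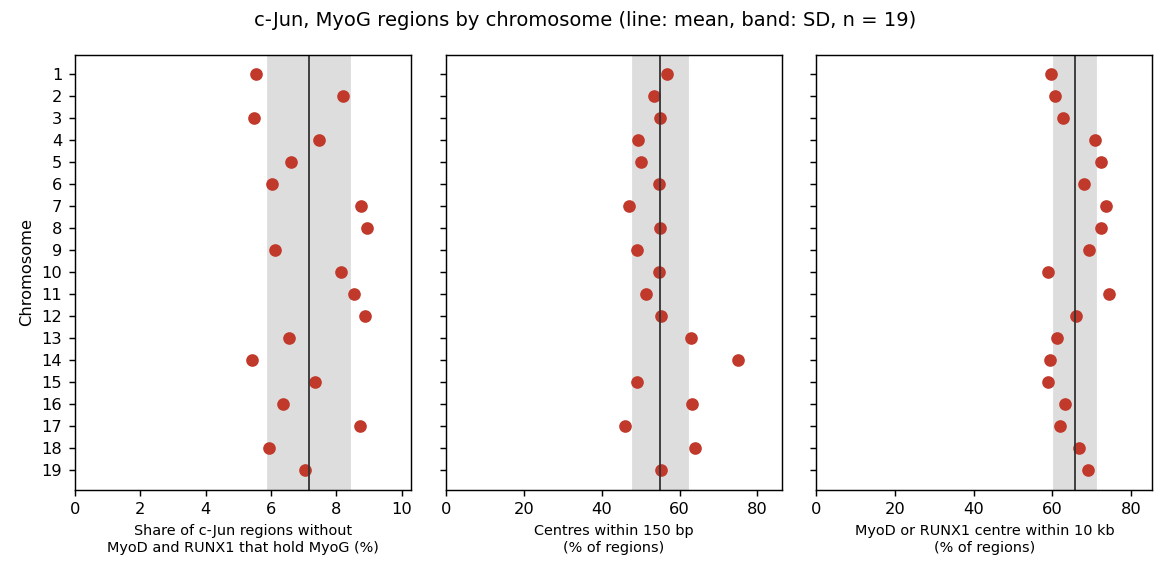
The c-Jun and MyoG regions on each of chromosomes 1 to 19 (vertical axis), as the share of c-Jun regions without MyoD and RUNX1 that hold MyoG, the share with centres within 150 bp and the share with a MyoD or RUNX1 peak centre within 10 kb (horizontal axes, percent). Points are chromosomes, the line is their mean and the band the SD (n = 19), and chromosome 14 stands at 5.41% in the left panel and 75.0% in the middle panel.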

How the data were processed

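The authors deposited 1 peak list per factor, and per the submitters' processing notes the reads were processed with CASAVA 1.7.0 and 1.8.2 and Bowtie on mm9. Peak names begin with MACS. For its version, settings, control and any pooling of replicates, nothing is stated in the labels or lists. The score of each peak is the authors' deposited value, on a scale that is not stated. The list named by an abbreviation was taken as MyoG by elimination. The control libraries have no values of their own in these lists.

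Peaks were merged in Python 3.11.15 with pandas 2.3.3 and numpy 2.4.6, intervals came from scipy 1.17.1 and figures from matplotlib 3.10.9. The merging was tested on simulated data and gave the same 97753 regions and 1068 members as bedtools 2.31.1. A factor's value in a region is that of its highest-scoring peak, and a centre is the midpoint of a peak. Ranks and percentiles refer to the whole deposited list. Coordinates are 1-based. Errors are SDs over 19 chromosomes, which share the same libraries, so no p-value was computed.

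The members, tests and named regions were chosen with earlier results of these data known. Named were the 10 members with the best worst rank, the 3 further members with the highest score of each factor, the 3 farthest from and the 3 nearest to MyoD or RUNX1, and the 3 windows of 100 kb with the most members. Nearest genes and motifs, listed as conditional on an mm9 reference, were not run. Alternatives were other overlap rules, peak extents, score thresholds and distances to MyoD and RUNX1.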

Additional observations from a re-analysis of the deposited data

How the results depend on the processing

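Of 47 alternative values of 7 results, 20 stayed within the limits set (1.5 times for the number of regions, the 95% exact binomial interval for shares, 1 SD over chromosomes for medians) and 27 moved. The members numbered 262 with scores of at least 100 for c-Jun and MyoG only, since 806 members hold a weaker peak, and from 744 to 1356 otherwise. Centres within 150 bp gave 1356 regions, of which 583 were members, because looser overlaps with MyoD or RUNX1 no longer counted. Some of the 27 moved values follow from the alternative rule itself, as given below.

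The MyoG share of c-Jun regions, 7.13% as reported, was 6.42% with a shared span of 50% of the shorter peak, 6.09% with windows of 200 bp, 5.71% with centres within 150 bp, 6.70% with scores of at least 100 in all lists, 3.06% with that score for c-Jun and MyoG only and 8.47% without peaks that score 3100 or more and the widest 1%. The median centre distance moved to 67.3 bp with windows of 200 bp and 163.3 bp with scores of at least 100 for c-Jun and MyoG only. Centres within 150 bp moved from 54.2% to 60.9% with the 50% span and 87.3% with windows of 200 bp. With scores of at least 100 for c-Jun and MyoG only, the share was 47.7%. Windows of 200 bp overlap only where centres lie less than 200 bp apart, so the 67.3 bp and the 87.3% largely follow from that rule. The share near MyoD or RUNX1 moved from 65.8% to 81.7% (windows of 200 bp), 84.3% (centres within 150 bp), 59.3% with scores of at least 100 in all lists, 68.7% with that score for c-Jun and MyoG only and 61.9% with none within 500 bp. The first pair of these rules admits overlapping MyoD or RUNX1 peaks by construction. Leaving out members with such a peak within 500 bp lowers the share by construction. The median c-Jun percentile moved from 37.5 to 44.3 (windows of 200 bp), 46.2 (centres within 150 bp), 60.0 and 58.6 (score thresholds in all lists and for c-Jun and MyoG only) and 42.6 without those strongest and widest peaks. The median MyoG percentile moved from 25.7 to 31.2, 33.4, 47.2, 44.7 and 30.3 in that order. Percentiles refer to the whole lists, so the score thresholds raise both medians by construction.

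No paired analysis was possible because no list tells its replicates apart, which also prevented leaving 1 of them out. Depth is unknown, so it cannot be said which absent peaks lie under the authors' threshold.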

Other observations

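Chromosome X was outside the rule for the regions. By the same merging it held 13 regions with c-Jun and MyoG and without MyoD and RUNX1, among 1795 merged regions. They were 3.68% of its 353 c-Jun regions without MyoD and RUNX1 (95% exact binomial interval 1.98 to 6.22%), below the lowest share of any chromosome from 1 to 19 (5.41%), which lies within this interval. Their centres lay a median of 60.5 bp apart, within 150 bp in 10 of the 13, and their median scores were 129.5 for c-Jun and 106.9 for MyoG.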
